A study of Mus musculus with 2 samples.

Results

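Cspg4 Tesc interstitial cells are fibroblast-type cells of the mouse mitral valve that carried transcripts of both Cspg4 and Tesc. They were chosen by their own counts of UMIs, the molecular tags that mark single captured transcripts. A barcode counted as an interstitial cell when it had at least 1000 UMIs, at least 500 genes and at most 20% mitochondrial UMIs, and when at least 1% of its UMIs came from Dcn, Col1a1, Col1a2 and Col3a1. It was a Cspg4 Tesc cell when it also held at least 1 UMI each of Cspg4 and Tesc, at most 1 UMI of Myh11, a smooth muscle myosin, and fewer than 8 UMIs of Chad, Cilp2 and Thbs4 together, which mark the cartilage-like cells of the valve. The rule found 408 such cells among 7768 interstitial cells of Fbn1 C1039G/+ valves and 250 among 7556 of wild type valves, or 658 of 15324 interstitial cells and of 19253 barcodes in all.

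The study made 2 droplet libraries of 3′ transcript ends from mitral valves, with the anterior and posterior leaflets, of C57BL/6J mice at 1 month of age. The first library pooled 3 mice that carried the Fbn1 C1039G allele on 1 chromosome, and the other pooled 5 wild type (Fbn1 +/+) mice. The product of Fbn1, fibrillin-1, builds microfibrils outside the cell, and C1039G/+ mice serve as a model of Marfan syndrome. With 1 library per genotype there is no replicate, so no test was made, every interval covers counting error only, and genotype cannot be told apart from pool or capture.

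Cspg4 encodes NG2, a transmembrane proteoglycan best known on pericytes and oligodendrocyte precursors. Tesc encodes tescalcin, a calcium-binding protein with EF hands that acts on sodium-proton exchange. Valve interstitial cells build the layered matrix of the leaflets and the chordae. The markers set beside the 2 genes are Npy, a neuropeptide precursor, Scx, a transcription factor of tendons and valve chordae, Bmp2, a ligand of bone morphogenetic protein (BMP) signalling, and Scin, which severs actin filaments.

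The median Cspg4 Tesc cell had 11082 UMIs in the Fbn1 C1039G/+ library and 10768 in the wild type library, against 10022 and 10065 in the other interstitial cells of the Fbn1 C1039G/+ and wild type libraries. A deeper cell passes a rule of at least 1 UMI more easily, so shares were also taken after each cell was thinned to 5000 UMIs. The libraries shared 17 barcode sequences, of which 11 were interstitial in both and 0 were Cspg4 Tesc cells in both. Levels are counts per 1000000 UMIs (CPM), summed over a set of cells.

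The 2 genes of the rule, which are described and not tested, were sparse even in the cells chosen by them. Cspg4 (mm10 chr9:56865033-56899870) stood at 145 CPM in Fbn1 C1039G/+ and 141 CPM in wild type Cspg4 Tesc cells, against 21.1 and 18.4 CPM in the other interstitial cells of the Fbn1 C1039G/+ and wild type libraries. The median Cspg4 Tesc cell held 1 UMI of it in either library, and 51.5% of the Fbn1 C1039G/+ and 64.8% of the wild type Cspg4 Tesc cells held exactly 1. Membership of most of these cells therefore rests on a single Cspg4 molecule. Tesc (mm10 chr5:118027743-118061878) stood at 285 CPM in Fbn1 C1039G/+ and 304 CPM in wild type Cspg4 Tesc cells, with medians of 3 and 2 UMIs per cell in the Fbn1 C1039G/+ and wild type libraries. Macrophage-type barcodes gave the background of free RNA. Among them, where neither gene is expected, Cspg4 was found in 1.88% (Fbn1 C1039G/+, 904 barcodes) and 1.31% (wild type, 841 barcodes), and Tesc in 1.66% (Fbn1 C1039G/+) and 0.951% (wild type). Both genes together were found in 2 Fbn1 C1039G/+ and 0 wild type macrophage-type barcodes, which allows a wild type share of up to 0.438% by the exact binomial interval.

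Of the 4 markers outside the rule, Scin, Bmp2 and Npy were higher in Cspg4 Tesc cells of both libraries, and Scx was higher by less. Scin (chr12:40059769-40134228) had 65.9 CPM in Fbn1 C1039G/+ and 54.6 CPM in wild type Cspg4 Tesc cells, against 20.1 and 15.5 CPM in the other interstitial cells of the Fbn1 C1039G/+ and wild type libraries. The ratio was 3.28 (95% interval 2.92 to 3.67) in the Fbn1 C1039G/+ library and 3.52 (2.97 to 4.14) in the wild type library. Bmp2 (chr2:133552159-133562885) had 125 CPM in Fbn1 C1039G/+ and 122 CPM in wild type Cspg4 Tesc cells, against 45.5 and 43.9 CPM in the other interstitial cells of the Fbn1 C1039G/+ and wild type libraries. Its 2 libraries were nearly equal, with ratios of 2.75 (Fbn1 C1039G/+) and 2.78 (wild type). Npy (chr6:49822710-49829507) had 472 CPM in Fbn1 C1039G/+ and 312 CPM in wild type Cspg4 Tesc cells, against 175 and 155 CPM in the other interstitial cells of the Fbn1 C1039G/+ and wild type libraries. Scx (chr15:76457452-76459458) had 378 CPM in Fbn1 C1039G/+ and 306 CPM in wild type Cspg4 Tesc cells, against 276 and 198 CPM in the other interstitial cells of the Fbn1 C1039G/+ and wild type libraries. Its ratio of 1.37 in the Fbn1 C1039G/+ library stayed under the limit of 1.5-fold used below, and that of 1.54 in the wild type library passed it.

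At equal depth the markers were still found in more Cspg4 Tesc cells than other interstitial cells. For these detection shares the cells stayed those chosen at full depth. After thinning, which left out 10 Fbn1 C1039G/+ and 0 wild type Cspg4 Tesc cells and 611 Fbn1 C1039G/+ and 174 wild type other interstitial cells as too shallow, Npy was detected in 42.7% of Fbn1 C1039G/+ and 38.8% of wild type Cspg4 Tesc cells. The other interstitial cells had Npy in 17.0% (Fbn1 C1039G/+) and 15.3% (wild type), and macrophage-type barcodes in 1.28% (Fbn1 C1039G/+) and 0.664% (wild type). Scin was detected in 26.1% of Fbn1 C1039G/+ and 22.8% of wild type Cspg4 Tesc cells, against 8.70% and 6.51% of other interstitial cells in the Fbn1 C1039G/+ and wild type libraries. Both genes were therefore well above the background of free RNA. Without thinning, the Npy shares were 52.5% (Fbn1 C1039G/+) and 50.4% (wild type) of Cspg4 Tesc cells, against 22.2% (Fbn1 C1039G/+) and 19.5% (wild type) of other interstitial cells. Without thinning, Scin was detected in 48.3% of Fbn1 C1039G/+ and 36% of wild type Cspg4 Tesc cells, a gap that thinning reduced to 3.33 percentage points (interval -3.59 to 9.91).

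The 4 markers did not mark 1 uniform set of cells. All 4 were detected in 16.4% of Fbn1 C1039G/+ and 12.8% of wild type Cspg4 Tesc cells at full depth, and none in 3.19% (Fbn1 C1039G/+) and 7.60% (wild type). Among other interstitial cells, all 4 were detected in 2.32% (Fbn1 C1039G/+) and 1.33% (wild type). Across the 408 Fbn1 C1039G/+ and 250 wild type Cspg4 Tesc cells, Npy and Scx per cell had a Spearman rho of 0.21 (Fbn1 C1039G/+) and 0.25 (wild type), while Npy and Bmp2 had 0.04 (Fbn1 C1039G/+) and 0.03 (wild type). These correlations are over cells of a single library that share its depth and are descriptions. Npy was the most uneven of the 4: the tenth of cells with most Npy held 65.7% of its UMIs in Fbn1 C1039G/+ and 59.0% in wild type Cspg4 Tesc cells, against 32.7% and 35.5% for Scx in Fbn1 C1039G/+ and wild type Cspg4 Tesc cells.

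In both libraries Scin and Bmp2 were higher in cells with at least 3 UMIs each of Cspg4 and Tesc than with exactly 1. Scx was higher in the Fbn1 C1039G/+ library and nearly level in the wild type library. No intervals were taken for these small sets of cells. Npy was higher in the Fbn1 C1039G/+ library only. Cells with exactly 1 UMI of each gene had 49.5 CPM of Scin in 70 Fbn1 C1039G/+ cells and 25.2 CPM in 59 wild type cells. Cells with at least 3 UMIs of each gene had 74.9 CPM in 59 Fbn1 C1039G/+ cells and 120 CPM in 24 wild type cells. Bmp2 in the cells with exactly 1 UMI of each was 82.5 CPM (Fbn1 C1039G/+) and 89.7 CPM (wild type). That was above the 36.9 CPM (Fbn1 C1039G/+) and 37.6 CPM (wild type) of cells with neither gene. With at least 3 it was 123 CPM (Fbn1 C1039G/+) and 132 CPM (wild type). Scx went from 298 to 468 CPM (Fbn1 C1039G/+) and from 296 to 307 CPM (wild type). The rise was not steady: Fbn1 C1039G/+ cells whose lower count was 2 had 85.7 CPM of Scin and 162 CPM of Bmp2. Npy went in opposite directions in the libraries, at 249 CPM (Fbn1 C1039G/+) and 321 CPM (wild type) with exactly 1 UMI of each gene and at 483 CPM (Fbn1 C1039G/+) and 273 CPM (wild type) with at least 3. The limit on cartilage genes left out 137 Fbn1 C1039G/+ and 158 wild type cells that had both Cspg4 and Tesc but a cartilage sum of 8 or more. Just outside that limit, at a sum of 8 to 15, Npy stood at 723 CPM in 65 Fbn1 C1039G/+ and 781 CPM in 54 wild type cells. Just inside it, at a sum of 4 to 7, Npy stood at 688 CPM in 67 Fbn1 C1039G/+ and 368 CPM in 36 wild type cells. The limit on Myh11 removed 0 Fbn1 C1039G/+ cells and 1 wild type cell.

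**Figure D1:**
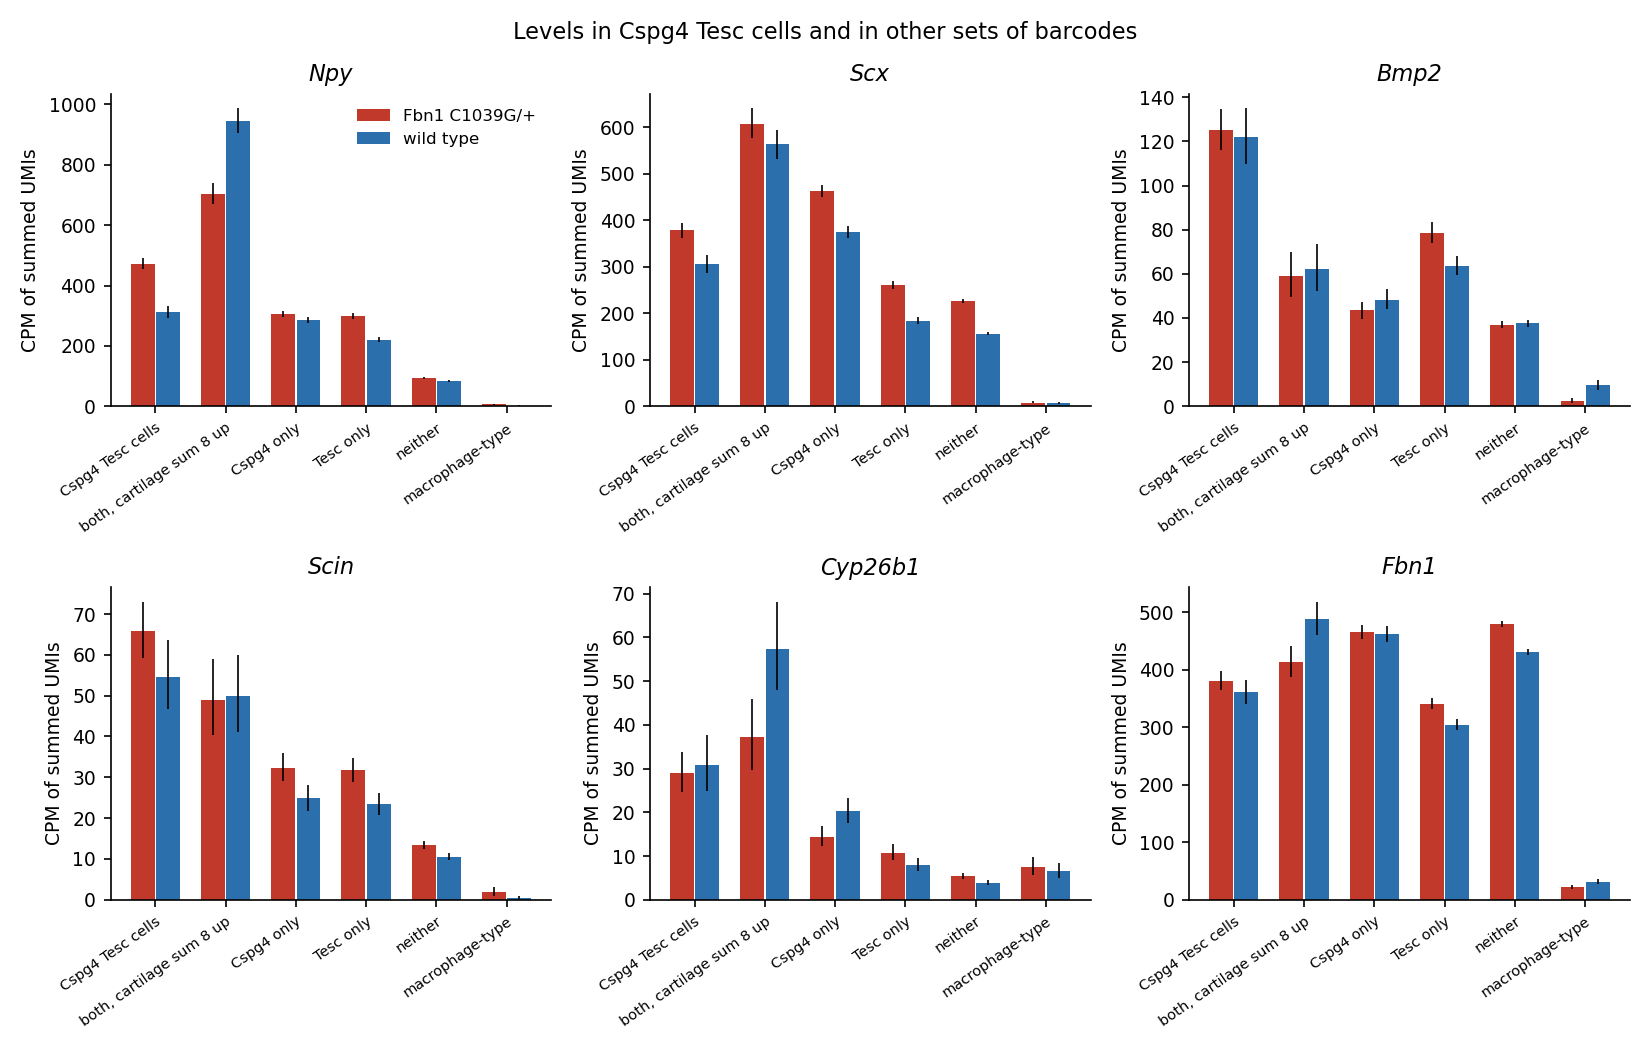
Levels of 6 genes in CPM of summed UMIs (bars, with exact Poisson 95% intervals as lines) in Cspg4 Tesc cells, in cells with both genes and a cartilage sum of 8 or more, in cells with Cspg4 only, Tesc only or neither, and in macrophage-type barcodes. Bmp2 is highest in the Cspg4 Tesc cells of both libraries, while Npy and Scx are highest in the cells with a cartilage sum of 8 or more; Npy there reaches 704 CPM in the Fbn1 C1039G/+ and 946 CPM in the wild type library.

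The order of the levels over sets of cells differed by gene. Npy was highest in the double-positive cells with a high cartilage sum, at 704 CPM (Fbn1 C1039G/+) and 946 CPM (wild type), then in Cspg4 Tesc cells, and then in cells with Cspg4 only, at 306 CPM (Fbn1 C1039G/+) and 286 CPM (wild type). Bmp2 was highest in Cspg4 Tesc cells and next in cells with Tesc only, at 78.6 CPM (Fbn1 C1039G/+) and 63.6 CPM (wild type), although in wild type the interval of that value overlapped that of the double-positive cells with a high cartilage sum, at 62.2 CPM. Scin was at 65.9 CPM (Fbn1 C1039G/+) and 54.6 CPM (wild type) in Cspg4 Tesc cells and at 48.9 CPM (Fbn1 C1039G/+) and 49.9 CPM (wild type) in the double-positive cells with a high cartilage sum. In the wild type library the intervals of those 2 sets overlapped. With only 1 of the 2 genes, Scin was at 32.3 CPM (Fbn1 C1039G/+) and 24.8 CPM (wild type) for Cspg4 and 31.7 CPM (Fbn1 C1039G/+) and 23.4 CPM (wild type) for Tesc. With neither it was at 13.3 CPM (Fbn1 C1039G/+) and 10.5 CPM (wild type). Scx was highest in the double-positive cells with a high cartilage sum, at 608 CPM (Fbn1 C1039G/+) and 563 CPM (wild type). Cells with Cspg4 only had 463 CPM (Fbn1 C1039G/+) and 375 CPM (wild type) of Scx. Both sets were above the Cspg4 Tesc cells, at 378 CPM (Fbn1 C1039G/+) and 306 CPM (wild type). The sets with only 1 gene or neither carry no limit on cartilage genes.

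Across all genes, Cspg4 Tesc cells had higher levels of Kcnk3, Cyp26b1, Has2 and S100a4 and lower levels of Igfbp3, Mmp3, Sfrp2 and C4b than other interstitial cells of both libraries. A gene was measured when it had at least 20 CPM in either set of cells and at least 50 UMIs over both, and was called when the ratio was at least 1.5-fold with an exact interval that excluded 1, in the same direction in both libraries. Of 6446 genes measured in both libraries 108 were called higher (1.68%) and 128 lower (1.99%). Taken alone, the Fbn1 C1039G/+ library called 2.85% higher and 3.13% lower, and the wild type library 3.19% higher and 2.95% lower. The cells were chosen by their transcripts, so these calls describe the cells and test nothing. The median log2 ratio over all measured genes was 0.04 in the Fbn1 C1039G/+ library and 0.04 in the wild type library.

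Kcnk3, a leak potassium channel, stood at 26.1 CPM in Fbn1 C1039G/+ and 27.1 CPM in wild type Cspg4 Tesc cells, against 6.17 and 7.15 CPM in other interstitial cells of the Fbn1 C1039G/+ and wild type libraries. Cyp26b1, which degrades retinoic acid, stood at 29.0 CPM in Fbn1 C1039G/+ and 30.7 CPM in wild type Cspg4 Tesc cells, against 8.47 and 8.03 CPM in other interstitial cells of the Fbn1 C1039G/+ and wild type libraries. These genes were found in a minority of Cspg4 Tesc cells: Kcnk3 in 22.3% (Fbn1 C1039G/+) and 22% (wild type), and Cyp26b1 in 20.1% (Fbn1 C1039G/+) and 15.2% (wild type). Anxa8, an annexin, had ratios of 5.45 (Fbn1 C1039G/+) and 8.08 (wild type), and 55.3% of its UMIs in Fbn1 C1039G/+ and 51.6% in wild type Cspg4 Tesc cells lay in 5 cells.

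Other genes were raised across many of the cells. Fxyd5, a regulator of the sodium-potassium pump, was detected in 95.6% of Fbn1 C1039G/+ and 92.0% of wild type Cspg4 Tesc cells, against 73.7% and 67.6% of other interstitial cells in the Fbn1 C1039G/+ and wild type libraries. S100a4, a calcium-binding protein of fibroblasts, had ratios of 2.56 (Fbn1 C1039G/+) and 2.29 (wild type), and Tppp3, a tubulin-binding protein known from mouse tendon sheath cells, 2.61 (Fbn1 C1039G/+) and 2.09 (wild type). Has2, which makes hyaluronan, stood at 58.9 CPM in Fbn1 C1039G/+ and 66.4 CPM in wild type Cspg4 Tesc cells, against 24.3 and 28.6 CPM in other interstitial cells of the Fbn1 C1039G/+ and wild type libraries. Cdkn1a, an inhibitor of cyclin-dependent kinases, had ratios of 2.26 (Fbn1 C1039G/+) and 2.68 (wild type). Of the same 20 leading genes, Fez1, Sdk2, Stk38l, Egln3, Etnk2, Idi1, Fam167a and Slc7a5 had ratios between 2.24 (Fam167a) and 3.41 (Fez1) in the Fbn1 C1039G/+ library and between 2.40 (Egln3 and Etnk2) and 2.85 (Slc7a5) in the wild type library.

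Dct, an enzyme of melanin synthesis, was also among the 20, with ratios of 4.58 (Fbn1 C1039G/+) and 4.73 (wild type), but its UMIs lay in few cells. In Cspg4 Tesc cells 5 barcodes held 96.7% of them in the Fbn1 C1039G/+ and 100% in the wild type library. Without barcodes that held at least 5 UMIs of macrophage, endothelial, T cell or melanocyte markers, the Dct ratio was 1.31 (Fbn1 C1039G/+) and 0.161 (wild type), while those of Npy, Bmp2 and Scin were 2.65, 2.78 and 3.33 (Fbn1 C1039G/+) and 1.86, 2.80 and 3.54 (wild type). That alternative removed 20 Fbn1 C1039G/+ and 10 wild type Cspg4 Tesc cells.

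Among the 10 genes with the smallest ratios were secreted proteins of the matrix and of signalling. Igfbp3, which binds insulin-like growth factors, stood at 13.1 CPM in Fbn1 C1039G/+ and 8.17 CPM in wild type Cspg4 Tesc cells, against 85.6 and 146 CPM in other interstitial cells of the Fbn1 C1039G/+ and wild type libraries. Mmp3, a matrix metalloproteinase, stood at 45.0 CPM in Fbn1 C1039G/+ and 17.7 CPM in wild type Cspg4 Tesc cells, against 271 and 247 CPM in other interstitial cells of the Fbn1 C1039G/+ and wild type libraries. Sfrp2, a secreted modulator of Wnt signalling, stood at 96.1 CPM in Fbn1 C1039G/+ and 102 CPM in wild type Cspg4 Tesc cells, against 469 and 359 CPM in other interstitial cells of the Fbn1 C1039G/+ and wild type libraries. In cluster 0, described below with the other clusters, Cspg4 Tesc cells had 92.1 CPM (Fbn1 C1039G/+) and 86.7 CPM (wild type) of Sfrp2. The other cells of that cluster had 460 CPM (Fbn1 C1039G/+) and 408 CPM (wild type). They include cells above the limit on cartilage genes, so the Sfrp2 call is not independent of the rule. C4b, a complement component, had ratios of 0.272 (Fbn1 C1039G/+) and 0.207 (wild type). The other 6 were Vegfd, a lymphatic growth factor, Ccn5, Adamts15, Srpx, Scn7a and Abca8a, with ratios of 0.126 to 0.260 in the Fbn1 C1039G/+ and 0.147 to 0.231 in the wild type library. Mmp3, Vegfd, Scn7a and Adamts15 were among the leading genes of cluster 3, and Igfbp3 of cluster 12. Sfrp2 stood at 12.9 CPM (Fbn1 C1039G/+) and 8.21 CPM (wild type) in cluster 9. In cluster 1 it stood at 1201 CPM (Fbn1 C1039G/+) and 1145 CPM (wild type). Low Sfrp2 was therefore not particular to Cspg4 Tesc cells.

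Ligands and their pathways were read from 29 lists, by the same 1.5-fold rule. Counts of calls in the lists and marker sets below stand against 1.68% higher and 1.99% lower over all measured genes. Of the BMP ligands 2 were measured, and only Bmp2 was called; Bmp4 stood at 75.2 CPM in Fbn1 C1039G/+ and 89.6 CPM in wild type Cspg4 Tesc cells, with ratios of 1.02 (Fbn1 C1039G/+) and 1.19 (wild type). Of 6 BMP receptors and SMADs and 8 BMP target genes measured, 0 were called in either direction; the target gene Id1 had ratios of 1.09 (Fbn1 C1039G/+) and 0.975 (wild type). Of 7 BMP antagonists and modulators, Nbl1 was higher, with ratios of 1.76 (Fbn1 C1039G/+) and 1.87 (wild type), and Chrdl1 lower, with 0.437 (Fbn1 C1039G/+) and 0.528 (wild type). Chrdl1 was a leading gene of cluster 1, described below. Cilp2, a gene of the cartilage limit, stood there at 796 CPM (Fbn1 C1039G/+) and 766 CPM (wild type). The Chrdl1 call is therefore not independent of the rule. Of 13 ligands and receptors of transforming growth factor beta (TGF-beta) 0 were called, although Tgfb1 reached 1.79 in the Fbn1 C1039G/+ library and 1.48 in the wild type library.

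Partners of the products of the rule's genes were mostly level. NG2 binds platelet-derived growth factor, and of 13 measured partners of it the receptor genes Pdgfra and Pdgfrb were lower: Pdgfra had ratios of 0.561 (Fbn1 C1039G/+) and 0.597 (wild type) and Pdgfrb 0.573 (Fbn1 C1039G/+) and 0.578 (wild type). Of 12 measured EF-hand proteins and partners in sodium-proton exchange, S100a4 was called higher and 0 lower. Of 5 gelsolin family genes only Scin was called; Gsn itself had ratios of 0.803 (Fbn1 C1039G/+) and 0.871 (wild type). Npy1r, which encodes a receptor of the Npy product, was not measured in these cells, at 0.360 CPM in Fbn1 C1039G/+ and 0.654 CPM in wild type Cspg4 Tesc cells.

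Tendon, elastic fibre and inflammatory lists held more lower than higher genes. Of 13 measured tendon and chordae genes 0 were higher and 4 lower, namely Col14a1, Tnxb, Comp and Htra3, against 1.68% higher and 1.99% lower over all measured genes, with a median log2 ratio of -0.58 (Fbn1 C1039G/+) and -0.07 (wild type), against 0.04 over all measured genes in either library. The 3 genes of the rule that the list holds were left out of this count. The limit on cartilage genes still bears on it, because it removes cartilage-type cells from the Cspg4 Tesc cells only. The other interstitial cells kept 1015 Fbn1 C1039G/+ and 1120 wild type cells of that type. The count for this list is therefore not independent of the rule. Of 18 measured elastic fibre genes Eln, which encodes elastin, Mfap4 and Lox, which cross-links elastin and collagen, were lower, and Mfap5 was higher. Over all measured genes 1.99% were lower and 1.68% higher. Eln stood at 57.2 CPM in Fbn1 C1039G/+ and 97.8 CPM in wild type Cspg4 Tesc cells, against 281 and 244 CPM in other interstitial cells of the Fbn1 C1039G/+ and wild type libraries. Low Eln was not particular to Cspg4 Tesc cells. It stood at 47.7 CPM (Fbn1 C1039G/+) and 51.0 CPM (wild type) in cluster 9, described below. In cluster 12 it reached 1894 CPM (Fbn1 C1039G/+) and 828 CPM (wild type). Fbn1 itself was at 381 CPM in Fbn1 C1039G/+ and 361 CPM in wild type Cspg4 Tesc cells, with ratios of 0.842 (Fbn1 C1039G/+) and 0.868 (wild type), and was not called. A 3′ count of Fbn1 reads both alleles together and does not show the C1039G change.

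Of 13 measured chemokine, cytokine and complement genes 6 were lower (Ccl2, Ccl19, Cxcl12, C3, C1ra and Serping1) and 0 higher, against 1.99% lower and 1.68% higher over all measured genes, with a median log2 ratio of -0.67 (Fbn1 C1039G/+) and -0.55 (wild type). Serping1, which inhibits the first step of complement, had 192 CPM in Fbn1 C1039G/+ and 208 CPM in wild type Cspg4 Tesc cells, against 448 and 482 CPM in other interstitial cells of the Fbn1 C1039G/+ and wild type libraries. In the Wnt list Sfrp1, Sfrp2 and Wif1, all secreted antagonists or modulators, were lower, and 0 of 10 were higher. Over all measured genes 1.99% were lower and 1.68% higher. The Sfrp2 call is not independent of the rule, as given above. Proteoglycan and hyaluronan genes went both ways, with Has2 and Gpc1 higher and Ogn, Aspn and Gpc6 lower of 18 measured. The flow-responsive transcription factor genes Klf2 and Klf4 were higher, Klf2 at 1.72 (Fbn1 C1039G/+) and 1.67 (wild type) and Klf4 at 2.38 (Fbn1 C1039G/+) and 1.77 (wild type). Of 20 measured mesenchymal transcription factors Nfatc1, known as a gene of valve endocardium, was higher, at 1.52 (Fbn1 C1039G/+) and 1.84 (wild type), and Twist2 and Tcf21 were lower. Of the other lists, the chondrogenic one had Cytl1 higher and Matn2 lower, and those of interferon response, immediate early and heat shock genes had 0 calls in either direction between Cspg4 Tesc and other interstitial cells.

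Markers of other cell types are given because NG2 is best known from other cells. The 8 pericyte markers summed to 323 CPM in Fbn1 C1039G/+ and 315 CPM in wild type Cspg4 Tesc cells. Other interstitial cells had 424 CPM (Fbn1 C1039G/+) and 459 CPM (wild type). Higd1b and Vtn were at 0 in Cspg4 Tesc cells of both libraries, and 3 of the 8 were called lower. Vtn was also at 0 in the other interstitial cells of the Fbn1 C1039G/+ library. Rgs5 gave the largest part of the sum, at 191 CPM (Fbn1 C1039G/+) and 146 CPM (wild type) in Cspg4 Tesc cells. It had 146 CPM (Fbn1 C1039G/+) and 127 CPM (wild type) in cells with neither gene. With Tesc only it had 343 CPM (Fbn1 C1039G/+) and 290 CPM (wild type), and with Cspg4 only 95.1 and 84.2 CPM. The 8 oligodendrocyte precursor markers summed to 60.1 CPM in Fbn1 C1039G/+ and 76.8 CPM in wild type Cspg4 Tesc cells. Other interstitial cells had 94.1 CPM (Fbn1 C1039G/+) and 123 CPM (wild type) of them. Sox10, Pdgfra, Cspg5 and Ptprz1 had at least 1 UMI in Cspg4 Tesc cells of both libraries, and Olig1, Olig2, Neu4 and Lhfpl3 were at 0. Of the 8, 0 were called higher and 1, Pdgfra, was called lower. Olig2, Neu4 and Lhfpl3 were also at 0 in the other interstitial cells of the Fbn1 C1039G/+ library. Of the smooth muscle markers Acta2 and Tagln gave most of a sum of 1460 CPM in Fbn1 C1039G/+ and 1071 CPM in wild type Cspg4 Tesc cells, against 931 and 775 CPM in other interstitial cells of the Fbn1 C1039G/+ and wild type libraries; Myh11 is limited by the rule, Actg2 was at 0 in both libraries and Mylk was lower. The 8 macrophage markers summed to 349 CPM (Fbn1 C1039G/+) and 404 CPM (wild type) in Cspg4 Tesc cells, of which 5 cells held 84.7% (Fbn1 C1039G/+) and 89.8% (wild type). Their part in the results was not tested beyond the alternative without such barcodes. The general interstitial markers were present, at 37562 CPM in Fbn1 C1039G/+ and 35564 CPM in wild type Cspg4 Tesc cells for 10 genes, against 43242 and 39039 CPM in other interstitial cells of the Fbn1 C1039G/+ and wild type libraries.

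Hemoglobin transcripts were the furthest below other interstitial cells. The 5 erythroid genes summed to 41.0 CPM in Fbn1 C1039G/+ and 45.1 CPM in wild type Cspg4 Tesc cells, against 507 and 1096 CPM in other interstitial cells of the Fbn1 C1039G/+ and wild type libraries. Among other interstitial cells 5 barcodes held 54.5% (Fbn1 C1039G/+) and 44.4% (wild type) of these UMIs. Hba-a1 and Hba-a2, like Hbb-bs and Hbb-bt, are near copies, so single values are uncertain. The part of free or red cell RNA in this difference was not tested.

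To ask whether these cells form a state of their own, interstitial cells of both libraries were clustered without the 10 genes of the rule. The largest share of Cspg4 Tesc cells fell in cluster 0, led by Sdk2, Npy, Cilp, Scin and Fgf9, which held 46.8% of the Fbn1 C1039G/+ and 50.0% of the wild type Cspg4 Tesc cells, against 12.4% and 11.3% of other interstitial cells in the Fbn1 C1039G/+ and wild type libraries. The rest were spread over many clusters. The data therefore do not bear out a single cell type: the label holds for the rule, and about 1 in 2 of the cells falls in cluster 0. Conversely, Cspg4 Tesc cells made up 17.3% of cluster 0 in the Fbn1 C1039G/+ and 13.2% in the wild type library. The 2 genes of the rule, which took no part in the clustering, were both detected in 26.7% of cluster 0 cells in the Fbn1 C1039G/+ and 25.7% in the wild type library. Of the cells outside that cluster 3.75% (Fbn1 C1039G/+) and 2.50% (wild type) had both. Cspg4 stood at 98.8 CPM (Fbn1 C1039G/+) and 89.7 CPM (wild type) in all cells of cluster 0, and at 17.5 CPM (Fbn1 C1039G/+) and 13.5 CPM (wild type) outside it.

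**Figure D2:**
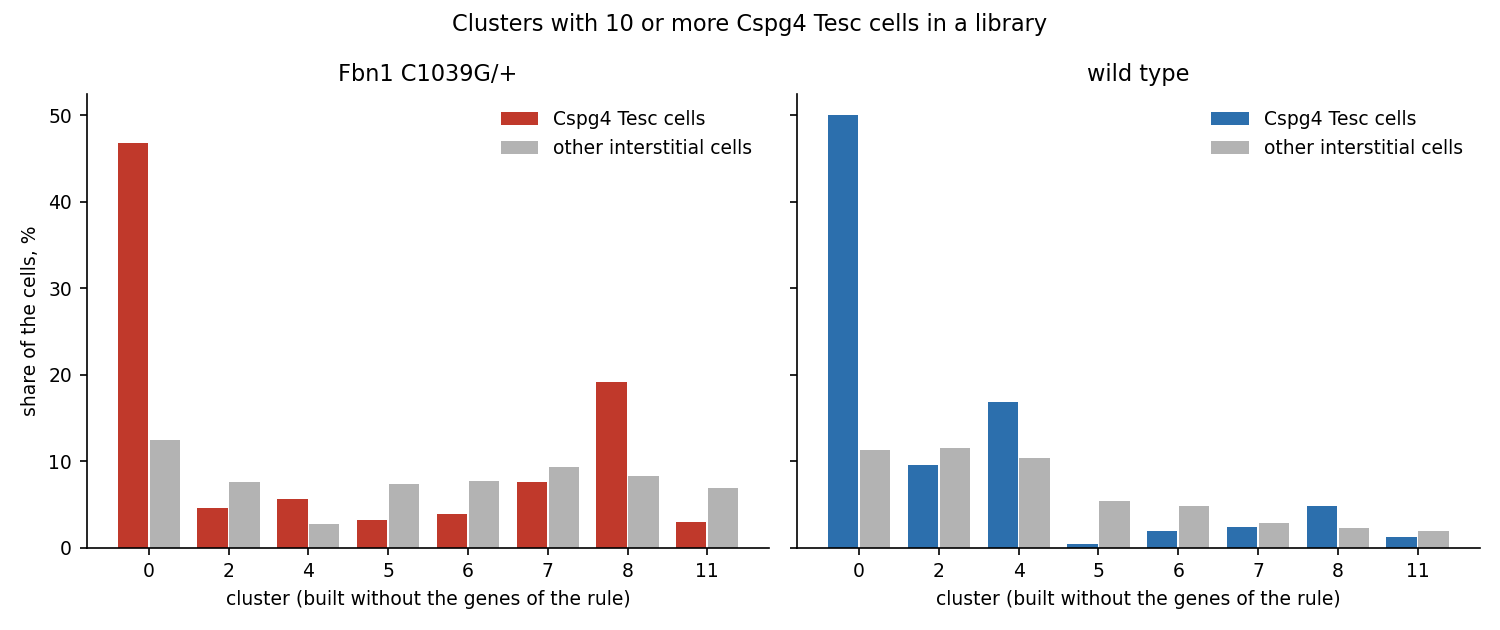
Share (%) of Cspg4 Tesc cells (coloured bars) and of other interstitial cells (grey bars) in each cluster that held at least 10 Cspg4 Tesc cells in a library, for Fbn1 C1039G/+ (left) and wild type (right). Cluster 0 holds 46.8% (Fbn1 C1039G/+) and 50.0% (wild type) of Cspg4 Tesc cells; cluster 8 stands out in Fbn1 C1039G/+ and cluster 4 in wild type.

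Within cluster 0 the marker pattern came apart. Bmp2 was still higher in Cspg4 Tesc cells, at 160 CPM (Fbn1 C1039G/+, 191 cells) and 170 CPM (wild type, 125 cells), against 74.7 CPM (Fbn1 C1039G/+) and 76.4 CPM (wild type) in the other cells of the cluster. Scin behaved alike, at 106 CPM (Fbn1 C1039G/+) and 89.0 CPM (wild type) in the Cspg4 Tesc cells of the cluster, against 58.9 CPM (Fbn1 C1039G/+) and 54.9 CPM (wild type) in its other cells. Npy was not higher there, at 573 CPM (Fbn1 C1039G/+) and 402 CPM (wild type) in Cspg4 Tesc cells, against 579 CPM (Fbn1 C1039G/+) and 600 CPM (wild type) in the other cells of the cluster, which include those above the limit on cartilage genes. Outside cluster 0, Cspg4 Tesc cells kept the higher Npy, at 407 CPM (Fbn1 C1039G/+) and 240 CPM (wild type), against 118 CPM (Fbn1 C1039G/+) and 98.8 CPM (wild type) in other interstitial cells. Scin there was at 39.7 CPM (Fbn1 C1039G/+) and 27.1 CPM (wild type) in Cspg4 Tesc cells, against 14.6 CPM (Fbn1 C1039G/+) and 10.5 CPM (wild type) in other interstitial cells.

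Cspg4 Tesc cells were a larger share of interstitial cells in Fbn1 C1039G/+ than in wild type valves. They made up 5.25% of Fbn1 C1039G/+ interstitial cells (exact 95% interval 4.77 to 5.77) and 3.31% of wild type interstitial cells (2.92 to 3.74), a difference of 1.94 percentage points (1.31 to 2.59, counting error only). In 50 random draws each cell was thinned to 5000 UMIs and the rule was applied anew to the thinned counts. The shares averaged 2.86% (Fbn1 C1039G/+) and 1.81% (wild type), a difference of 1.05 points that ranged from 0.735 to 1.42. With at least 2 UMIs of each gene, 145 Fbn1 C1039G/+ and 70 wild type cells remained, or 1.87% and 0.926% of the interstitial cells of the Fbn1 C1039G/+ and wild type libraries. The direction was kept in each case. Cells with Cspg4 but no Tesc made up 11.6% (Fbn1 C1039G/+) and 10.1% (wild type), and cells with Tesc but no Cspg4 14.9% (Fbn1 C1039G/+) and 15.5% (wild type), a difference whose interval included 0.

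The difference in share was seen in female cells and not clearly in male cells. Cells with Xist and no UMI of Ddx3y, Eif2s3y, Kdm5d or Uty were taken as female and those with the reverse as male; the rest were left out of this split. In female cells the share was 6.03% (Fbn1 C1039G/+) and 3.03% (wild type), a difference of 3.00 points (2.05 to 3.96). In male cells it was 4.04% (Fbn1 C1039G/+) and 3.74% (wild type), a difference of 0.303 points (-0.673 to 1.29). The difference between the sexes was not tested. Both sexes were present in the pool of 3 Fbn1 C1039G/+ mice, so 1 of the sexes came from a single mouse, and mouse and sex cannot be told apart there.

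**Figure D3:**
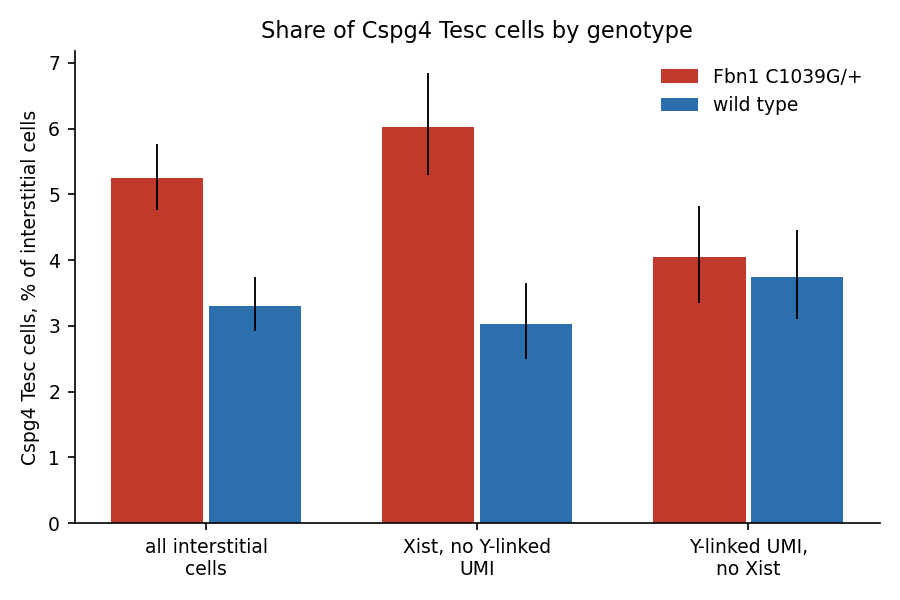
Cspg4 Tesc cells as a percentage of interstitial cells, over all cells and over cells called female or male from Xist and Y-linked transcripts, with exact binomial 95% intervals as lines. The Fbn1 C1039G/+ bar is above the wild type bar by 3.00 points in female cells and by 0.303 points in male cells.

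The spread of Cspg4 Tesc cells over clusters also differed between libraries. Cluster 8, led by Ereg, Serpine2, Fst and Bdnf, held 19.1% of Fbn1 C1039G/+ and 4.80% of wild type Cspg4 Tesc cells. Cluster 4, led by Bglap2, Astn1 and Nt5dc2, held 5.64% of Fbn1 C1039G/+ and 16.8% of wild type Cspg4 Tesc cells. The same tilt was present in other interstitial cells, of which cluster 8 held 8.33% (Fbn1 C1039G/+) and 2.26% (wild type) and cluster 4 held 2.76% (Fbn1 C1039G/+) and 10.4% (wild type). With 1 library per genotype, a cluster that lies mostly in 1 library may be a property of that library.

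Between genotypes, Cspg4 Tesc cells of Fbn1 C1039G/+ valves had higher levels of Fst, Ereg, Tnc, 6 of 15 measured interferon response genes and 2 of 8 heat shock genes, and lower levels of 9 of 15 immediate early genes. Of 6756 measured genes 163 were called higher (2.41%) and 190 lower (2.81%) in Fbn1 C1039G/+ over wild type, by the 1.5-fold rule in this single comparison. The same comparison in other interstitial cells, which come from the same 2 pools, called 62 of 6557 genes higher (0.946%) and 91 lower (1.39%). It rests on 7360 Fbn1 C1039G/+ and 7306 wild type cells, against 408 and 250 Cspg4 Tesc cells. Ratios vary more in so few cells, so these shares do not show in which cells the genotypes differ more. Of the genes called higher in Cspg4 Tesc cells 125 were also measured in other interstitial cells, and 38 of those were called higher there; for lower genes it was 55 of 155.

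Fst, which encodes follistatin, a secreted inhibitor of activins and BMPs, stood at 108 CPM in Fbn1 C1039G/+ and 14.7 CPM in wild type Cspg4 Tesc cells, a ratio of 7.35 (5.43 to 10.2). In other interstitial cells the ratio was 2.95. In Cspg4 Tesc cells 5 barcodes held 52.9% of Fst UMIs in the Fbn1 C1039G/+ library. The Fst ratio was 6.48 without the 2% of cells with most Fst and 4.40 without barcodes with markers of another cell class. It was 2.34 after thinning, where the rule was applied anew to the thinned counts. Ratios between genotypes after thinning therefore come from a smaller and different set of cells. Ereg, which encodes a ligand of the epidermal growth factor receptor, stood at 34.4 CPM in Fbn1 C1039G/+ and 5.56 CPM in wild type Cspg4 Tesc cells and was detected in 19.6% (Fbn1 C1039G/+) and 5.60% (wild type) of them. Its relative Areg had 27.5 CPM in Fbn1 C1039G/+ cells and 0.654 CPM, from 2 UMIs, in wild type cells, a ratio of 42.1 with an interval of 11.5 to 351. Without the 2% of cells with most Areg it was not called, at 8.82 CPM (Fbn1 C1039G/+) and 0 CPM (wild type). Ereg, Fst, Tnc and Timp1 are among the 10 leading genes of cluster 8, which held more of the Fbn1 C1039G/+ cells; the part of that mix was not tested. Within cluster 0 alone the ratio of Fst was 1.65 (1.01 to 2.80) and that of Ereg 3.46 (1.69 to 8.01).

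Tnc, a matrix glycoprotein of tendons and of remodelling tissue, stood at 101 CPM in Fbn1 C1039G/+ and 28.1 CPM in wild type Cspg4 Tesc cells, a ratio of 3.58 (2.85 to 4.55), against 1.81 in other interstitial cells. After thinning, with the rule applied anew, the Tnc ratio was 1.35 (0.863 to 2.15) and was not called. Fn1, which encodes fibronectin, had a ratio of 2.22 (1.91 to 2.60), and Timp1, an inhibitor of metalloproteinases, of 2.25 (2.09 to 2.42). Within cluster 0 alone Timp1 had a ratio of 1.23 and was not called, while Fn1 had 4.33. Inhba, a subunit of activins that Fst binds, had 94.7 CPM in Fbn1 C1039G/+ and 56.6 CPM in wild type Cspg4 Tesc cells. These matrix and TGF-beta genes were called in other interstitial cells too, with ratios there of 2.52 for Fn1, 1.63 for Timp1 and 1.55 for Inhba. Of 10 measured TGF-beta targets, Fn1 and Timp1 were higher and 0 lower, against 2.41% higher and 2.81% lower over all measured genes. The median log2 ratio of this list was 0.21, against 0.02 over all genes measured in Cspg4 Tesc cells. In other interstitial cells the median of the list was 0.51, with 2 of 9 measured targets called higher and 0 lower.

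Of 15 measured interferon response genes 6 were higher in Fbn1 C1039G/+ Cspg4 Tesc cells and 0 lower, against 2.41% higher and 2.81% lower over all measured genes. They were Isg15, Ifit3, Irf7, Bst2, Ifi44 and Xaf1, with ratios from 1.68 (Xaf1) to 12.2 (Ifi44). Without the 2% of cells with most of each gene, Ifi44 was not called, at 14.6 CPM (Fbn1 C1039G/+) and 0 CPM (wild type), and the other 5 were. The median log2 ratio of the list was 0.38 in Cspg4 Tesc cells and 0.32 in other interstitial cells, where 5 of 15 were called higher. Isg15 stood at 184 CPM in Fbn1 C1039G/+ and 63.1 CPM in wild type Cspg4 Tesc cells. It was detected in 39.2% (Fbn1 C1039G/+) and 23.2% (wild type) of them. In female Cspg4 Tesc cells Isg15 stood at 92.8 CPM (Fbn1 C1039G/+) and 40.3 CPM (wild type), and in male ones at 363 CPM (Fbn1 C1039G/+) and 63.3 CPM (wild type). The difference between the sexes was not tested for Isg15. The heat shock genes Hspa1a and Hspa1b, near copies whose reads can be shared, had ratios of 2.89 and 3.21 in Cspg4 Tesc cells and 2.06 and 2.60 in other interstitial cells.

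Immediate early genes were lower in Fbn1 C1039G/+ Cspg4 Tesc cells, 9 of 15 measured, with 0 higher and a median log2 ratio of -0.68. Over all measured genes 2.81% were lower and 2.41% higher. Fos had 597 CPM in Fbn1 C1039G/+ and 1581 CPM in wild type Cspg4 Tesc cells, a ratio of 0.377 (0.361 to 0.395). Fosb, Gadd45b and Zfp36 had ratios of 0.327, 0.257 and 0.357. In other interstitial cells 12 of the 15 were called lower, against 1.39% over all genes measured there, with a median log2 ratio of -1.17. Transcripts of this class respond quickly to tissue handling, and the valves of each genotype were pooled before dissociation; the part of handling was not tested.

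Of 16 measured elastic fibre genes Eln and Mfap4 were called lower and 0 higher in Fbn1 C1039G/+ Cspg4 Tesc cells. Over all measured genes 2.81% were lower and 2.41% higher. Eln stood at 57.2 CPM in Fbn1 C1039G/+ and 97.8 CPM in wild type Cspg4 Tesc cells, a ratio of 0.585 (0.498 to 0.688), while its ratio in other interstitial cells was 1.15. In wild type Cspg4 Tesc cells 5 barcodes held 52.5% of Eln UMIs. The Eln call rests on few cells: the ratio was 0.913 without predicted doublets and 0.810 without the 2% of cells with most Eln. It was 0.775 after thinning, with the rule applied anew, and 1.19 within cluster 0. Eln was called in none of these. Mfap4, a microfibril-associated protein, had 329 CPM in Fbn1 C1039G/+ and 658 CPM in wild type Cspg4 Tesc cells, a ratio of 0.501 (0.470 to 0.534), against 0.762 in other interstitial cells. Mfap4 was called lower in each of those 4 alternatives, with ratios of 0.400 to 0.479. Cilp had a ratio of 0.526, which was 0.949 in female and 0.466 in male cells, and Htra3 had 0.519. Of 16 measured tendon and chordae genes Tnc was higher and Cilp, Egr2, Aqp1 and Htra3 were lower. That stands against 2.41% higher and 2.81% lower over all measured genes. Prg4, which encodes lubricin, stood at 2293 CPM in Fbn1 C1039G/+ and 3553 CPM in wild type Cspg4 Tesc cells, a ratio of 0.645, against 0.703 in other interstitial cells.

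Of the 4 markers outside the rule, only Npy was called between genotypes. Bmp2 had a ratio of 1.03 (0.903 to 1.17), Scin of 1.21 (1.00 to 1.46) and Scx of 1.24, and none of these was called. Npy had a ratio of 1.51 (1.41 to 1.63), just over the limit. It was under the limit at 1.45 without the 2% of cells with most Npy and at 1.40 without predicted doublets. After thinning, with the rule applied anew, it was 1.12. Without the limits on Myh11 and cartilage genes its log2 ratio was -0.10. Fbn1 had a ratio of 1.06 in Cspg4 Tesc cells and 1.09 in other interstitial cells. The lists of BMP ligands, receptors and SMADs had 0 calls between genotypes in these cells.

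**Figure D4:**
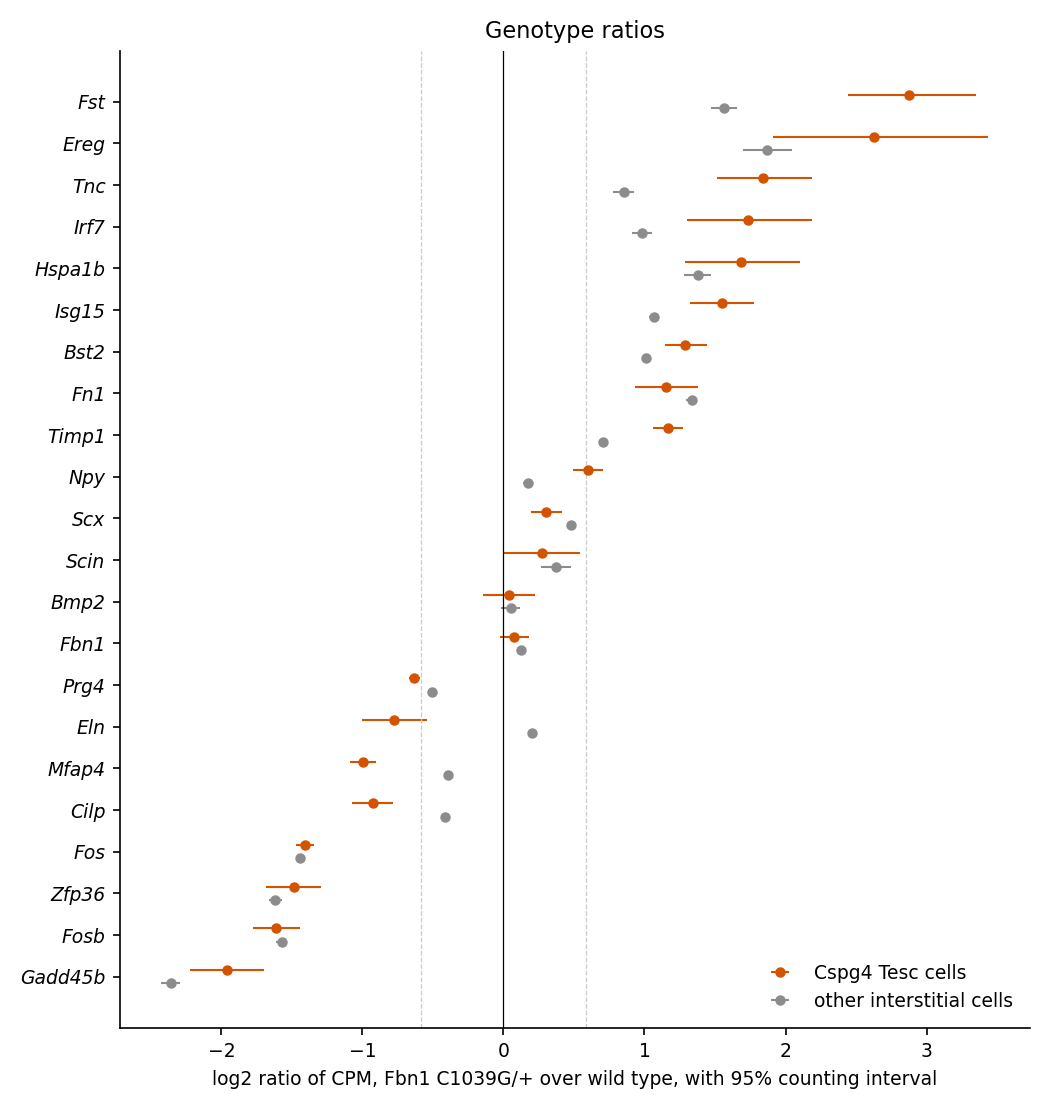
Log2 ratio of Fbn1 C1039G/+ over wild type CPM for 22 genes in Cspg4 Tesc cells (orange) and in other interstitial cells (grey), with exact 95% counting intervals and dashed lines at 1.5-fold. Fst (ratio 7.35) and Ereg (6.18) lie furthest right in Cspg4 Tesc cells, Gadd45b (0.257) lies furthest left, and Eln is at 0.585 in Cspg4 Tesc cells and 1.15 in other interstitial cells; the Eln call is lost without predicted doublets (0.913).

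The extremes of the genotype ratios were set by few cells. Nts, a neuropeptide precursor, had the largest ratio, 304, but its 99.5 CPM in the Fbn1 C1039G/+ library came from 3 cells, and the wild type library had 1 UMI. Pf4 and Ifi44 also led the higher genes, and 5 cells held 91.9% of the Pf4 UMIs in Fbn1 C1039G/+ Cspg4 Tesc cells. Cst6, a protease inhibitor, was found in 16.9% of Fbn1 C1039G/+ and 7.20% of wild type Cspg4 Tesc cells, and without the 2% of cells with most Cst6 it fell under the measuring limit, at 17.8 CPM (Fbn1 C1039G/+) and 4.25 CPM (wild type). Among the 10 genes with the smallest ratios, the cell cycle genes Top2a, Aspm, Mki67, Prc1 and Ube2c, the chemokines Cxcl9 and Ccl8 and the osteocalcin family gene Bglap2 had 80.7% to 100% of their wild type UMIs in 5 Cspg4 Tesc cells. Cxcl1 had 83.6% and the sarcomere gene Tcap 72.6% in 5 cells. Of these 10 only Bglap2 was still called without the 2% of cells with most of each gene, at 1.26 CPM in Fbn1 C1039G/+ and 30.1 CPM in wild type Cspg4 Tesc cells, and its near copies make the single value uncertain. Of the 10 leading higher genes, Fst, Ereg, Tnc, Irf7 and Hspa1b were still called. Without those cells 139 of 5994 genes were higher and 132 lower, of which 102 and 109 were among the calls over all cells.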

How the data were processed

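Raw UMI counts per gene and barcode were deposited by the authors for 2 libraries; per the labels' protocols an enzyme mix freed the cells of the pooled valves, and version 3.1 of the Chromium 3′ chemistry was used. Per the submitters' processing notes Cell Ranger 3.1.0 and mm10 were used, while the file headers name Cell Ranger 5.0.1. How barcodes without cells were removed is not given in the sources used here, and free RNA was not subtracted. The members, markers and lists were chosen with earlier results of these data known.

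Counts were summed over cells and scaled to 1000000 (CPM), with a pseudocount of 1 CPM in log2 ratios. Intervals are 95%: exact Poisson for levels, exact conditional binomial for ratios, Clopper-Pearson for shares and Newcombe for differences of shares. UMI totals were 5556471 and 3058499 in Fbn1 C1039G/+ and wild type Cspg4 Tesc cells, and 80902659 and 79684777 in the other interstitial cells of the Fbn1 C1039G/+ and wild type libraries. The calling rule was tested on simulated Poisson counts of whole cell sets, in which a gene's UMIs do not gather in few cells. That test therefore does not cover calls that rest on few cells. Doublets were kept in the main values: Scrublet's automatic limit marked 0.0318% (Fbn1 C1039G/+) and 0.0218% (wild type) of barcodes and so did not work, and in an alternative the highest scores were removed at 0.8% per 1000 barcodes. Clusters (scanpy 1.11.5, Leiden, 2000 variable genes, 30 components, 15 neighbours, resolution 1) left out the 10 genes of the rule. Macrophage-type barcodes were kept, were not interstitial and held at least 5 UMIs of C1qa, C1qb, C1qc and Csf1r. Named genes are those of the 29 lists and 16 marker sets and the 20 highest and 10 lowest by the library with the smaller difference, and the 10 highest and 10 lowest between genotypes, leaving out hemoglobin, immunoglobulin, Xist, Y-linked, ribosomal, mitochondrial and unnamed genes. Coordinates are those of GENCODE M21, which matched 32158 of 32285 genes. Cluster-leading genes, Ccl5 and the alternatives on trimmed cells, on mixed barcodes and on a single cluster were chosen after the values were seen. A few named genes are not reported here.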

Additional observations from a re-analysis of the deposited data

Results flagged for a closer look

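Ccl5, a chemokine of lymphocytes and macrophages, was called in opposite directions between genotypes. In Cspg4 Tesc cells it stood at 55.3 CPM in Fbn1 C1039G/+ and 35.0 CPM in wild type, a ratio of 1.58 (1.26 to 1.99), while in other interstitial cells it stood at 22.8 CPM in Fbn1 C1039G/+ and 43.2 CPM in wild type, a ratio of 0.528. It was found in 14 Fbn1 C1039G/+ and 8 wild type Cspg4 Tesc cells, and 5 cells held 97.1% (Fbn1 C1039G/+) and 97.2% (wild type) of its UMIs. The difference between the 2 ratios was not tested.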

How the results depend on the processing

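No paired analysis was possible because the 2 libraries share only the replicate number 1 and each genotype has a single library. The higher share of Cspg4 Tesc cells in Fbn1 C1039G/+ (1.94 points) kept its direction in every alternative run; it moved to 0.940 with at least 2 UMIs of each gene, 1.05 after thinning, 3.00 in female and 0.303 in male cells. Against 108 higher and 128 lower genes in Cspg4 Tesc over other interstitial cells, the counts were 172 and 196 with at least 2 UMIs of each gene, 241 and 333 without a filter on low values, 33 and 42 at 100 CPM, 26 and 60 at 2-fold and 56 and 58 within cluster 0, where 24 of the higher and 24 of the lower genes were calls over all cells too. Thinning gave 160 and 186, and median-of-ratios scaling 87 and 150. After thinning the rule was applied anew, so the cells differ from those of the main values. Between genotypes, against 163 higher and 190 lower, the counts were 452 and 694 without a filter, 31 and 35 at 100 CPM and 41 and 62 at 2-fold; 259 were higher with at least 2 UMIs and 338 in female cells, and 125 were lower without the limits on Myh11 and cartilage genes and 122 after thinning. In all 14 log2 ratios changed sign. Between genotypes Pf4 moved to -0.92 with at least 2 UMIs, -0.32 after thinning, -0.31 in female cells and -0.74 in cluster 0; Npy to -0.10 without the limits; Ccl8 to 0.20 with interstitial cells set at 2% of UMIs and 1.25 in cluster 0; Cxcl9 to 0.44, Top2a to 0.18, Aspm to 0.44 and Prc1 to 0.60 in female cells; and Top2a to 1.502 and Cxcl1 to 0.20 in cluster 0. Npy in Cspg4 Tesc over other interstitial cells was -0.013 in the Fbn1 C1039G/+ and -0.58 in the wild type library within cluster 0. The cause of these shifts was not tested. Of the other values over named genes and lists 1483 stayed within their counting interval, or for list medians within a set margin, and 518 did not. The 1483 include values that could not change. The 57 named-gene ratios do not depend on the 2-fold limit or on the filters on low values. The 58 list medians do not depend on the 2-fold limit. Wild type Cspg4 Tesc cells held 3058499 UMIs in 250 cells, and a gene needed at least 50 UMIs over both libraries to be measured.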
